A study of Mus musculus with 6 samples.

Results

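The Notch receptors Notch1, Notch2 and Notch3, the ligand Jag1, the Notch inhibitor Numb and the transcription factors Hes1, Hes6, Hey1, Hey2 and Heyl were followed across sorted mouse pituitary cells. These 10 genes were taken by symbol from a table of 22869 genes, and all 10 had a row. RNA had been sequenced from somatotropes, which secrete growth hormone, and lactotropes, which secrete prolactin, sorted by fluorescence from pituitaries of female mice that were 6 to 8 weeks old, all of them a CD1 x C57BL/6 hybrid. No treatment was given, and each cell type had 3 libraries titled as biological replicates. The sources used here do not say which marker set the sort gate or how many animals a replicate held. The p-values therefore cover the spread between these libraries, which may be technical.

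Notch signalling passes between neighbouring cells. A ligand such as Jag1 on one cell binds a Notch receptor on the next, the receptor is cut, and its intracellular part enters the nucleus, joins the DNA-binding protein Rbpj and switches on genes of the Hes and Hey families. Hes1 and the Hey factors are basic helix-loop-helix (bHLH) repressors that hold back differentiation genes, Hes6 is a family member that interferes with Hes1, and Numb is an endocytic adaptor that lowers Notch activity. In the pituitary the pathway is known for keeping progenitor cells undifferentiated.

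Levels are in FPKM, the fragments of a transcript per kilobase of its length, scaled to the library's depth. Being per length, they allow a rough comparison between genes. How evenly the amplified RNA covered long transcripts, such as those of the receptors, was not tested. All 3 Gh levels in somatotropes (19384 to 84909 FPKM) lay above those in lactotropes (3954 to 7623 FPKM). All 3 Prl levels in lactotropes (25171 to 195325 FPKM) lay above those in somatotropes (8709 to 24481 FPKM). Each library thus carried the hormone of its label and some of the other. Transcripts of other cells were present too. Pomc, a corticotrope and melanotrope marker, had 93.6, 1209 and 5758 FPKM in somatotropes and 853, 553 and 425 FPKM in lactotropes. Summed erythroid markers were at 4259 and 3529 FPKM in somatotrope 3 and lactotrope 3, and at 5.33 to 325 FPKM elsewhere. The part of these cells in the levels of the genes followed here was not tested. The number of genes above 0 ran from 11318 in lactotrope 3 to 18592 in somatotrope 1. In lactotrope 3, 14.94% of tested genes were at 0 (0.23% to 2.95% elsewhere), and Numb and Heyl are among them, so their 0 is given as listed, with no mean ± SD. Fitted differences, the order of mean levels and counts over means take it as 0, and the fitted differences of both are also given without that library. Libraries that share a replicate number lay on the same side of their cell types' means for many genes, and differences are therefore also given within each pair. In somatotrope 1, lactotrope 1 and lactotrope 2 the low values of genes with a single exon were whole multiples of a smallest step. If that step is 1 fragment, these libraries held 29.3, 17.6 and 70.3 fragments in units of 1e6. Depth could not be recovered for the other 3, somatotropes 2 and 3 and lactotrope 3. Their values are listed to a further decimal, as for Hes1 at 6.85845, 6.94055 and 0.52645 FPKM. In somatotrope 1, lactotrope 1 and lactotrope 2 Hes1 is listed at 3.5582, 2.9313 and 7.7328 FPKM. The sources used here do not say whether values of these 3 were averaged over several measurements, and this was not tested.

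The word GTGGGAA, or TTCCCAC read from the other strand, is the core that Rbpj is known to bind, and promoter sequences show which of these genes carry it next to their start. RefSeq promoter windows on GRCm38.p6, from 250 bases before to 50 after a gene's start, were found for 7 of the 10 genes (10 windows); Hes1, Hey1 and Heyl had none. Among the 7, Hey2 alone held the word, and it held it 2 times, on opposite strands. Of 32851 windows of this length in the table, 6.38% held it at least once and 0.256% at least 2 times. Of the other Notch pathway genes listed below, 46 had a window (59 windows). The word was held by 6 of these genes in at least 1 window (Lfng, Psen2, Aph1a, Spen, Hes5 and Hes7). Hes5 alone among these held it 2 times. These counts are per gene, and the shares of all windows are per window. The part of the Hey2 window shown lies on the minus strand at chr10:30842764-30843033 and that of the Hes5 window on the plus strand at chr4:154960673-154960942. Each is shown 5′ to 3′ with the word in capitals, and the last 20 of its 270 bases lie after the start.
Hey2: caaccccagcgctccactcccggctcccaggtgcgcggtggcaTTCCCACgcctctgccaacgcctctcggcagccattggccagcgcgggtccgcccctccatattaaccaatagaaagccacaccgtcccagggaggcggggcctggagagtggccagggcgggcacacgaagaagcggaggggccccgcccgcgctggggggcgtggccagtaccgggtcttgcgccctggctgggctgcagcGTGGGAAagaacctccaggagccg
Hes5: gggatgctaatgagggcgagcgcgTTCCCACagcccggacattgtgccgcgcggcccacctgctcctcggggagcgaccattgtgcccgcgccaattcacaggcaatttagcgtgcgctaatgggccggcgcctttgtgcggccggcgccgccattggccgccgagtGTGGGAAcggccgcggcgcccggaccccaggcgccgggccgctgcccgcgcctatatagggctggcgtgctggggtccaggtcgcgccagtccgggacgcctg
Counted from 1 at the left end, the matches lie at bases 44 to 50 and 247 to 253 in Hey2 and at bases 25 to 31 and 168 to 174 in Hes5. The pair differed in the RNA data: Hey2 was above 0 in all 6 libraries, at 1.17 to 5.27 FPKM, and Hes5 was listed at 0 in all 6. A match is a description of the sequence and not a measured binding site.

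By their means the receptors were the least abundant of the 10 genes, and none of the 3 exceeded 1.1 FPKM in any library. Notch3 (mm9 chromosome 17, 32257838 to 32303797, minus strand) had 0.844, 0.763 and 1.06 FPKM in somatotropes 1 to 3 and 0.607, 0.710 and 0.506 FPKM in lactotropes 1 to 3. The lowest somatotrope library lay just above the highest lactotrope library, with means of 0.887 ± 0.152 and 0.607 ± 0.102 FPKM (SD, n = 3 each). This separation rests on how libraries are scaled: it was lost under median-ratio scaling, quantile normalization and rescaling without Gh and Prl.

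Notch1 (chromosome 2, 26313422 to 26359342, minus strand) had 0.411, 0.699 and 0.733 FPKM in somatotropes and 0.424, 0.449 and 1.02 FPKM in lactotropes. The lowest of the 6 values was a somatotrope library and the highest a lactotrope library, and the groups overlapped, at 0.614 ± 0.177 and 0.631 ± 0.338 FPKM (SD, n = 3 each). Notch2 (chromosome 3, 97817461 to 97954290, plus strand) had 0.238, 1.08 and 0.0947 FPKM in somatotropes and 0.302, 0.365 and 0.0053 FPKM in lactotropes. Somatotrope 2 was far above the other 5 libraries for Notch2, and replicate 3 was lowest in both cell types. All 3 receptor transcripts stayed under the mean of 1 FPKM set for testing, so no test was made on them.

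Low FPKM of these long transcripts still meant many fragments where depth could be recovered. With transcript lengths of GENCODE M21, which may differ from those the authors used, Notch2 corresponds to about 73 fragments in somatotrope 1, 56 in lactotrope 1 and 269 in lactotrope 2. Notch3 corresponds to about 198, 86 and 400 fragments in the same order. Summed over the 3 receptors, levels were 1.49, 2.54 and 1.88 FPKM in somatotropes and 1.33, 1.52 and 1.53 FPKM in lactotropes, which overlapped narrowly.

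Jag1, a membrane ligand of Notch receptors (chromosome 2, 136907187 to 136942256, minus strand), had 1.61, 2.74 and 0.158 FPKM in somatotropes and 1.14, 1.33 and 0.485 FPKM in lactotropes. Replicate 3 was the lowest of its cell type for this gene, and the order of the cell types turned there: somatotropes were higher in pairs 1 and 2 and lower in pair 3. The fitted difference, somatotrope minus lactotrope on the log2(FPKM + 1) scale used for all tests, was 0.21 (SE 0.68), and it turned to -0.16 without somatotrope 2.

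Numb (chromosome 12, 85136389 to 85183293, minus strand) had 8.35, 11.7 and 3.92 FPKM in somatotropes and 8.22, 6.16 and a listed 0 FPKM in lactotropes. The cell types overlapped, and in pair 1 the values were 1.02 times apart. The log2 difference was 1.05 (SE 0.87) with lactotrope 3 and 0.04 without it. Another Numb row over the same span was lower in every library with a value, was also at 0 in lactotrope 3 and was not used. The sources used here do not say how reads of exons shared by the 2 rows were divided.

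Hes6 was the most abundant of the 10 genes in all 6 libraries, and its mean stood at the 94.4th percentile of all genes in the table. On chromosome 1 (93308060 to 93309799, minus strand), it had 19.0, 42.9 and 25.3 FPKM in somatotropes and 27.0, 17.1 and 15.4 FPKM in lactotropes. Its lowest value exceeded the highest of any other of the genes within the same cell type, but the cell types themselves overlapped, at 29.0 ± 12.4 and 19.8 ± 6.27 FPKM (SD, n = 3 each). Lactotropes were higher in pair 1 and somatotropes in pairs 2 and 3. The log2 difference was 0.49 (SE 0.57), and 0.18 without somatotrope 2.

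Hes1 (chromosome 16, 30065443 to 30067882, plus strand) had 3.56, 6.86 and 6.94 FPKM in somatotropes and 2.93, 7.73 and 0.526 FPKM in lactotropes. The highest and the lowest of the 6 values were both lactotrope libraries. The log2 difference was 0.81 (SE 0.78), most of it from pair 3, where it was 2.38 against 0.21 and -0.15 in pairs 1 and 2, and it was 0.17 without lactotrope 3 and 1.42 without lactotrope 2. Hes6 exceeded Hes1 in every library, by 5.33, 6.25 and 3.64 times in somatotropes and by 9.22, 2.21 and 29.3 times in lactotropes. The ratio is free of library scaling, and it overlapped between the cell types.

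**Figure D1:**
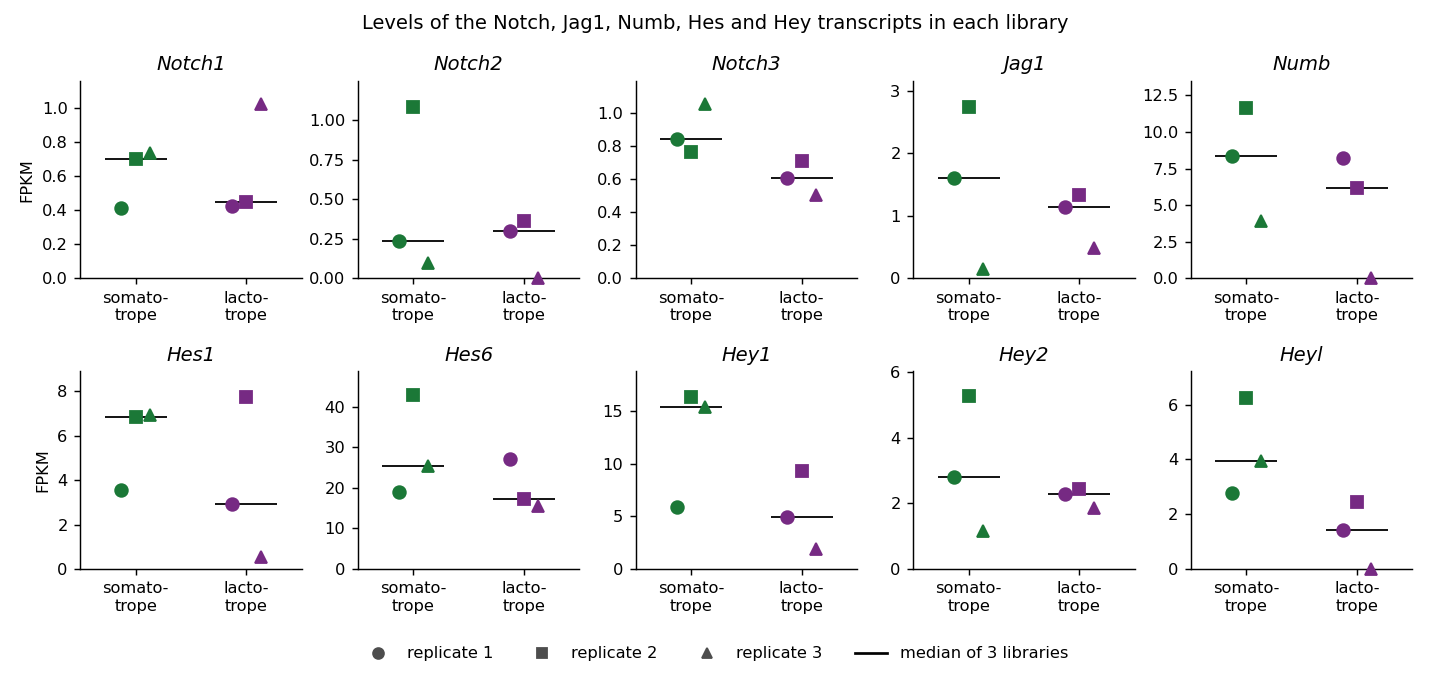
FPKM of the 10 genes in each library, with a separate vertical axis from 0 for each gene, 1 symbol shape per replicate number and a line at the median of the 3 libraries of a cell type. The libraries of Notch3 and Heyl did not overlap between the cell types, those of the other 8 genes did, and Numb and Heyl are listed at 0 in lactotrope 3.

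Among the Hey factors, Hey1 and Heyl were higher in somatotropes in every pair and Hey2 was not. Hey1 (chromosome 3, 8663359 to 8667038, minus strand), the most abundant of the 3 at the 82.9th percentile of all genes, had 5.88, 16.3 and 15.4 FPKM in somatotropes and 4.89, 9.30 and 1.85 FPKM in lactotropes. Somatotropes were higher in each pair, by 1.20, 1.75 and 8.32 times, although lactotrope 2 exceeded somatotrope 1 and the groups overlapped (12.5 ± 5.78 against 5.35 ± 3.75 FPKM, SD, n = 3 each). The log2 difference was 1.17 (SE 0.71), and 0.68 without lactotrope 3.

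Heyl (chromosome 4, 122910799 to 122927113, plus strand) had 2.78, 6.25 and 3.93 FPKM in somatotropes and 1.43, 2.43 and a listed 0 FPKM in lactotropes. Every somatotrope library was above every lactotrope library, and somatotropes were 1.95 and 2.57 times higher in pairs 1 and 2, where both values were above 0. The log2 difference was 1.34 (SE 0.74), the largest among the 7 genes tested, and 0.83 without lactotrope 3. Under the 3 other scalings the libraries of Heyl overlapped, with somatotrope 1 below lactotrope 2, while the direction within each pair stayed toward somatotropes for both Hey1 and Heyl.

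Hey2 (chromosome 10, 30552165 to 30562589, minus strand) had 2.81, 5.27 and 1.17 FPKM in somatotropes and 2.28, 2.43 and 1.86 FPKM in lactotropes, where its spread was small (2.19 ± 0.298 FPKM, SD, n = 3). The somatotrope values spanned the lactotrope ones on both sides, and the log2 difference of 0.23 (SE 0.71) turned to -0.15 without somatotrope 2. Hey1 was 2.09, 3.10 and 13.2 times Hey2 in somatotropes and 2.14, 3.83 and 0.997 times Hey2 in lactotropes. The pair of genes was thus in nearly the same ratio in both cell types of replicate 1 and furthest apart in replicate 3.

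Ordered by mean level, the genes ran Hes6, Hey1, Numb, Hes1, Heyl, Hey2, Jag1, Notch3, Notch1 and Notch2 in somatotropes. Only Hes6 and Hey1, and Notch3 and Notch1, were neighbours whose ranges did not overlap. The order in lactotropes was the same but for an exchange of Heyl with Hey2 and of Notch3 with Notch1, counting the listed zeros. There, neighbours without overlap were Hes6 and Hey1, and Notch3 and Notch2.

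Limma's test was run on the 7 of the 10 whose mean was at least 1 FPKM together with all other such genes, and none of the 7 passed (adjusted p = 1.00 for each of the 7). Of all 11642 genes tested, 0 passed at an adjusted p of 0.05, or 0%. An unadjusted p under 0.05 was found for 112 genes, 0.962% of those tested, and none of the 7 was among them. With the replicate number as a block limma again called 0 genes, and 1271 genes (10.9%) had an unadjusted p under 0.05. Hey1 and Heyl were among these 1271, with adjusted p = 0.424 and 0.356. The smallest two-sided p that an exact permutation of 3 against 3 libraries allows is 0.1.

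Counted over all 10 genes, 4 of them (Notch3, Numb, Hey1 and Heyl) had the higher value in the somatotrope library of each pair, and 0 of 10 in the lactotrope library of each pair. Among the 19557 genes above 0 in any library, the share was 16.6% toward somatotropes and 8.05% toward lactotropes. The libraries of 2 of the 10, Notch3 and Heyl, did not overlap, with somatotropes higher, as for 2.23% of the 19557 genes. The mean FPKM was higher in somatotropes for 9 of the 10, all but Notch1, where 64.5% of the 19557 genes were so. These counts are a description, since the genes were chosen with results of these libraries known. They moved with scaling: 3, 2 and 4 genes were higher in somatotropes in all 3 pairs under median-ratio scaling, quantile normalization and rescaling without Gh and Prl (background 12.7%, 13% and 16.7%), and 0 were without overlap under any of them. Hey1 and Heyl were counted in all 3 pairs under each.

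**Figure D2:**
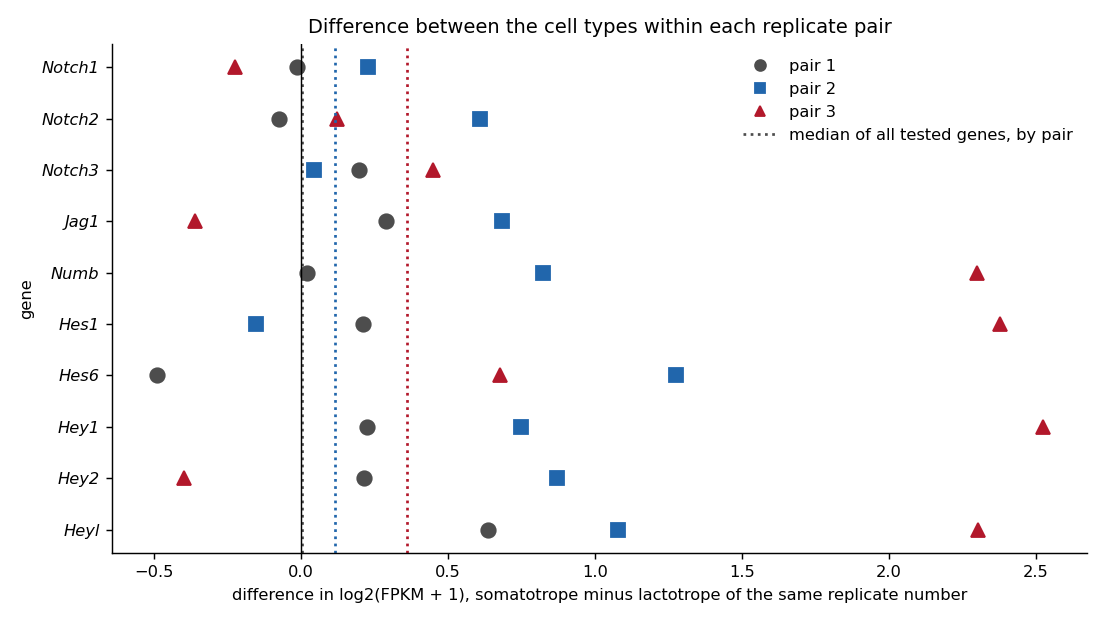
Difference in log2(FPKM + 1) within each replicate pair, somatotrope minus lactotrope, for the 10 genes, with dotted lines at the median over all tested genes in each pair (0.003, 0.118 and 0.363 in pairs 1 to 3). Notch3, Numb, Hey1 and Heyl lie right of 0 in all 3 pairs, and pair 3 holds the largest differences of Numb, Hes1, Hey1 and Heyl, at 2.30 to 2.52.

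The median log2 difference of the 7 tested genes was 0.81, beside 0.18 over all tested genes. Without lactotrope 3 these medians were 0.17 and -0.13. Median-ratio scaling moved the median over all genes to 0.05 and quantile normalization to 0.004, and the 7 genes then had medians of 0.73 and 0.54. The fitted differences of all 7 stayed above 0 under the 3 scalings.

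Stem and folliculostellate cells of the pituitary, in which Hes1 is known to be expressed, had markers that lay in the same direction as Hey1 and Heyl. The summed level of 8 such markers was 306, 2571 and 1286 FPKM in somatotropes and 168, 792 and 164 FPKM in lactotropes. The largest part in every library was Mia1, at 127, 1432 and 843 FPKM in somatotropes and 64.9, 453 and 123 FPKM in lactotropes. In all 3 pairs 6 of the 8 markers were higher in somatotropes. The progenitor factor Sox2 had 4.43, 7.68 and 3.56 FPKM in somatotropes and 2.12, 5.68 and 0.0041 FPKM in lactotropes. S100b was at 0 in lactotropes 1 and 3. As the libraries are bulk, fewer cells of a type and less RNA per cell cannot be told apart, and the part of these cells in the levels of the 10 genes was not tested.

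Notch3 and Heyl are also known from the mural cells of vessels, and Notch1, Hey1 and Hey2 from endothelium. The 9 endothelial markers summed to 1.55 to 4.14 FPKM in somatotropes and 0 to 4.66 FPKM in lactotropes, and none of them reached a mean of 1 FPKM. Of 11 mural and fibroblast markers, 3 reached it (Tagln, Col1a2 and Dcn); the sum over all 11 was 30.9 to 64.3 FPKM in somatotropes and 21.7 to 73.9 FPKM in lactotropes, with overlap. Of the 11, 1 was higher in somatotropes in all 3 pairs and 0 in lactotropes, beside 16.6% and 8.05% of the 19557 genes above 0 in any library. The 1 was Tagln, a smooth muscle gene. It had 2.00, 3.04 and 7.77 FPKM in somatotropes and 2.00, 2.48 and 0.0708 FPKM in lactotropes, nearly equal in pair 1. Others went the other way in part, with Pdgfrb and Col1a2 higher in lactotropes in pairs 1 and 2. The mural marker Acta2 reached 1.65 FPKM in somatotrope 2, while Pdgfrb, Cspg4 and Des were at or under 0.262, 0.0123 and 0.0084 FPKM in every library. Macrophage and leukocyte markers went the other way: all 8 were higher in lactotropes in all 3 pairs. Their sums were 261, 5424 and 2735 FPKM in somatotropes and 724, 11405 and 3926 FPKM in lactotropes. Most of each sum was Cd74, at 224, 4897 and 2252 FPKM in somatotropes and 581, 9644 and 3085 FPKM in lactotropes. The part of these cell types in the differences was not tested.

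**Figure D3:**
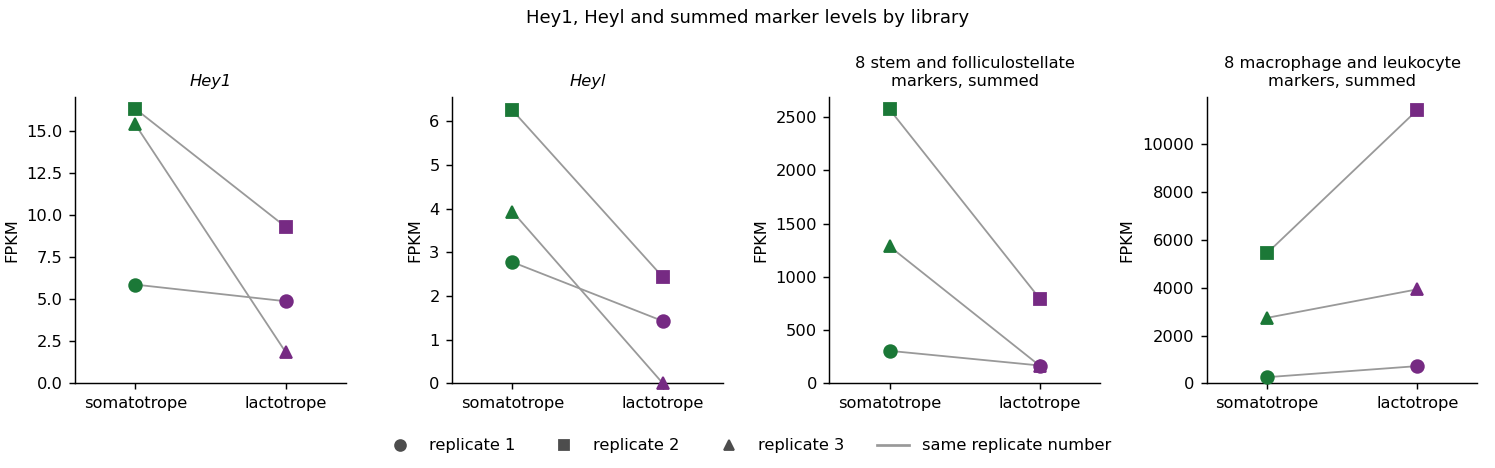
FPKM of Hey1, of Heyl and of the summed stem and folliculostellate and macrophage and leukocyte markers in each library, each on its own axis from 0, with lines joining libraries of the same replicate number. Hey1, Heyl and the summed stem markers are lower in the lactotrope library of each pair, and the summed leukocyte markers are higher there. In every library Mia1 is the largest part of the stem sum and Cd74 of the leukocyte sum.

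The rest of the Notch pathway, 60 further genes in 6 lists, lay on both sides of 0. On average 37 of them reached 1 FPKM or more, and 0 passed limma's test (0 also at an unadjusted p under 0.05). Under the block, 3 of the 37 had an unadjusted p under 0.05 by limma, a share below the 10.9% of all tested genes. They included Neurod4 and Id2, both of them bHLH partners and lower in somatotropes in each pair. Fitted log2 differences were above 0 for 23 of the 37 and below 0 for 14, near the background of 64.8% above 0 over all tested genes, and their median was 0.09.

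Among other receptors and ligands, Notch4, Dll1, Dll3, Dll4, Jag2 and Dlk2 stayed under the mean of 1 FPKM. Dlk1, an imprinted Notch-like protein, was abundant, at 88.1, 35.3 and 69.3 FPKM in somatotropes and 84.1, 39.4 and 74.3 FPKM in lactotropes. It was nearly equal within each pair, with a log2 difference of -0.06 (SE 0.58) whose sign turned with 1 library left out.

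Genes that modify, cut or turn over the receptor were present in both cell types. Of the 5 glycosyltransferases, which add sugars to Notch, Poglut1 (log2 difference 0.24) and Rfng (0.34) were the most abundant and Mfng (0.88, SE 0.81) had the smallest p. The difference of Mfng was 0.19 without lactotrope 3 and 1.54 without lactotrope 2. Of 9 tested genes of receptor cleavage, Ncstn, a subunit of gamma-secretase, had the highest mean, with 37.8, 44.9 and 19.3 FPKM in somatotropes and 56.3, 33.7 and 15.8 FPKM in lactotropes. The pairs differed in direction, and the log2 difference was 0.04 (SE 0.62). Among 9 tested genes of endocytosis and turnover, the log2 difference was -0.36 for Dtx3, 0.15 for Neurl1a and -0.59 for Mib2, a ubiquitin ligase that acts on Notch ligands. With 1 library left out, Dtx3 ran from -0.68 to -0.07, and Poglut1, Rfng, Ncstn, Neurl1a and Mib2 each changed sign at least once.

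In the nuclear complex, Rbpj itself had 1.39, 0.947 and 0.364 FPKM in somatotropes and 1.61, 1.47 and 0.0406 FPKM in lactotropes, under the mean for testing; it is named for its role and not by the rule. The co-repressors Tle1 and Tle4, which bind Hes proteins, had log2 differences of 1.18 (SE 0.81) and -0.06 (SE 0.91). Snw1 had 0.42, and 0.0085 without somatotrope 1. Tle1 was 0.0023 FPKM in lactotrope 3, and its difference was 0.35 without that library; Tle4 changed sign with 1 library left out.

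Among the other bHLH genes, Hes2, Hes5 and Helt were listed at 0 in all 6 libraries and Hes3 and Hes7 stayed under the mean of 1 FPKM, so of the Hes genes measured here only Hes1 and Hes6 had a mean of at least 1 FPKM. Id2, an inhibitor of bHLH dimers, was higher in lactotropes in each pair (log2 difference -0.82, SE 0.63), and Id3, of the same family, was not (0.77, SE 0.70). Id2 ran from -1.30 without somatotrope 3 to -0.43 without lactotrope 3, and Id3 from 0.13 without somatotrope 3 to 1.30 without somatotrope 1.

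**Figure D4:**
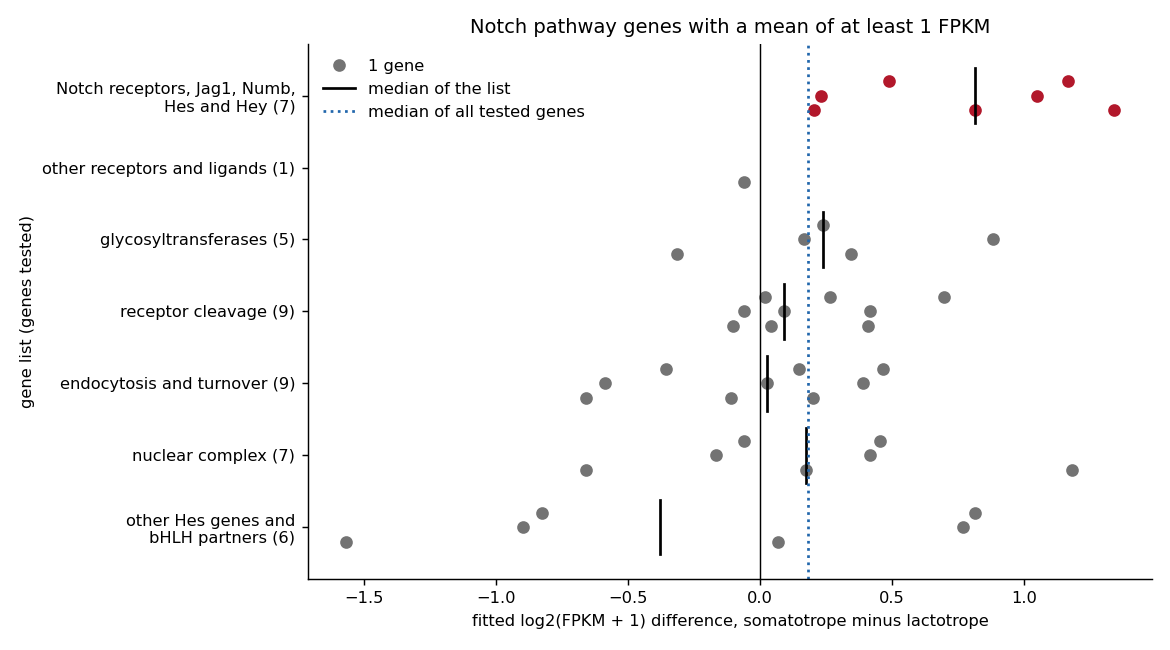
Fitted log2(FPKM + 1) difference, somatotrope minus lactotrope, of each Notch pathway gene averaging at least 1 FPKM, by list, with a black line at each list's median and a dotted line at the median of all tested genes (0.18). In the top list, Jag1, Numb, Hes1, Hes6, Hey1, Hey2 and Heyl lie above 0 (the Notch receptors were not tested), the 37 others fall on both sides, and none passed limma's test.

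The genes most like the 3 most abundant members across the 6 libraries, by Pearson's r of log2(FPKM + 1) and as a description, differed between the members. For Hes6 they were Ctxn1, Tmem106c and Manbal (r of 0.978, 0.977 and 0.974), for Hey1 Angptl4, Gstt1 and Tomm40 (0.999, 0.998 and 0.995) and for Numb 4930473A02Rik, Slc2a1 and Spint1 (0.998, 0.998 and 0.997). An r above 0.9 was found with Hes6, Hey1 and Numb for 0.438%, 2.78% and 7.04% of the 11641 other tested genes. The libraries share their replicate structure and the zeros of lactotrope 3, and genes are not independent replicates.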

How the data were processed

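Per the labels' protocols, RNA of the 6 sorted-cell samples was amplified (NuGen Ovation V2) and made into Illumina libraries. The submitters' processing notes name bcl2fastq 2.17.1.14, TopHat, edgeR and the build mm9; the sources used here do not give the counting step. The values the authors deposited are FPKM, in 30399 transcript rows. On such a scale very abundant transcripts such as Gh and Prl can lower the values of the rest of a library. The median over tested genes was highest in somatotrope 1 and lactotrope 1 (8.05 and 7.88 FPKM), the libraries with the most Gh and the most Prl. The 889 rows without a symbol were left out, and each gene took its row with the highest mean. Differences were fitted with limma 3.58.1 in R 4.3.3 on log2(FPKM + 1) for 11642 genes averaging 1 FPKM or more, with an intensity trend, no block and Benjamini-Hochberg adjustment at 0.05. This scale understates changes of low genes. The replicate numbers were taken to pair the libraries, although the labels do not say that a number marks a shared animal or day. Deviations from the group means correlated at 0.7625, 0.6132 and 0.3407 over genes for replicates 1 to 3. Such correlations between libraries of different replicate numbers are not given, so these values have no comparison. The code was tested on simulated data. No 2 libraries were duplicates: at most 2.34% of tested genes had values within 1% of each other. To recover depth, low values of single-exon transcripts were read as whole fragments within 0.1 fragment (99.6%, 98.9% and 99.4% of values in the 3 libraries named). Named genes were the 10, and from each further list the 2 with the highest mean and the 1 with the smallest p; others are named for a count or a role after their values were seen. Some genes that this rule selects are not reported here. The genes and lists were chosen with earlier results of these data known. Alternatives were other pseudocounts, filters, scalings, variance models, row rules and left-out libraries.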

Additional observations from a re-analysis of the deposited data

How the results depend on the processing

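None of the 10 genes that entered a fit was called by limma under any of 19 alternatives. The count of called genes over the table, 0, became 9 with array weights and 43 with array weights and the replicate block, and ran from 0 to 3 with 1 library left out (3 without somatotrope 1). It stayed 0 with the replicate block alone, which changed no other call. The 112 genes at an unadjusted p under 0.05 became 192 with no filter, 44 with a filter at 5 FPKM, 193 with median-ratio scaling, 215 with quantile normalization, 199 without Gh and Prl, 1266 with array weights, 1271 with the replicate block, 1340 with both and 473 with replicates 2 and 3 only, and ran from 39 to 641 with 1 library left out. In scalings added after the data were seen, the 4 genes higher in somatotropes in all 3 pairs became 2 under quantile normalization, and the 2 without overlap became 0 under median-ratio scaling, 0 under quantile normalization and 0 without Gh and Prl.

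Log2 differences of Numb, Hes1, Hes6, Hey1 and Heyl kept their sign in every alternative run, with ranges of 0.04 to 2.09, 0.0079 to 1.42, 0.18 to 0.98, 0.68 to 1.64 and 0.57 to 2.52. With 1 library left out, Hey2 ran from -0.15 to 0.62, Jag1 from -0.16 to 0.68, Dlk1 from -0.39 to 0.31, Ncstn from -0.43 to 0.45, Neurl1a from -0.38 to 0.63, Tle4 from -1.02 to 0.80, Mib2 from -1.10 to 0.074, Poglut1 from -0.075 to 0.64 and Rfng from -0.075 to 0.58. Ncstn turned to -0.15 under median-ratio scaling, -0.19 under quantile normalization, -0.0023 without Gh and Prl and -0.022 with array weights and the block, and Neurl1a to -0.028 and -0.017 under the first pair of scalings. Tle4 turned to 0.043 with a pseudocount of 0.1 and 0.14 with replicates 2 and 3 only, and array weights turned Dlk1 to 0.18 and Mfng to -0.046. The cause was not tested. With 3 libraries a side and no depth for 3 of the 6, the differences of the 7 genes tested did not exceed the spread between libraries by this test, and Notch1, Notch2 and Notch3 were not tested.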
